A study of Mus musculus with 4 samples.

Results

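The mouse gene Disc1 and the genes of 9 of its binding partners, Ndel1, Nde1, Pafah1b1, Fez1, Pde4b, Pde4d, Gsk3b, Tnik and Pcm1, were followed through the cell classes of the basolateral amygdala (BLA). These 10 genes were taken by symbol from the 32285 genes of the count tables, not by a cut on a measured value. Earlier results of these data were known when they were chosen. Nuclei came from C57BL/6J mice of 2 genotypes, wild type (WT) and a group whose labels read DISC-N and DISC1, called DISC1-N here after the series title. Both groups received tamoxifen by intraperitoneal injection and were sampled 6 h later. For a group, the bilateral BLA of 5 mice was combined. Frozen tissue gave 2 libraries per genotype (replicates 1 and 2), prepared with a 10x 3′ kit. The sources used here do not state the DISC1-N construct, its promoter, the purpose of the tamoxifen or the age of the mice. The labels do not say whether the replicates of a group came from separate mice, so p-values measure the spread between libraries, which may be technical.

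DISC1 is a scaffold protein that holds partners together at the centrosome, along microtubules and at synapses. NDEL1, NDE1 and LIS1, the product of Pafah1b1, regulate the minus-end motor dynein, which positions nuclei and carries cargo towards the cell body, while FEZ1 links cargo to the plus-end motor kinesin. PDE4B and PDE4D break down the messenger cAMP, GSK3β and TNIK are kinases of the Wnt pathway, with TNIK also found at the postsynaptic density, and PCM1 builds the satellites around centrioles.

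The 4 libraries held 27313 barcodes and between 37840301 and 48439711 UMIs (unique molecular identifiers, counts of single captured transcripts). After filtering, 25332 nuclei remained, of which 17798 fell by their own marker UMIs into 8 classes, each holding 20 or more nuclei per library. These were 5574 excitatory neurons, 3477 inhibitory neurons, 3090 astrocytes, 2455 oligodendrocytes, 1503 oligodendrocyte precursors, 134 differentiating oligodendrocytes, 1450 microglia and 115 mural cells. None of the 10 genes served as a marker. Every marker of the 8 classes was detected in its own class in every library, with Slc17a7, the vesicular glutamate transporter gene, at 176 to 239 CPM (a gene's UMIs scaled to 1000000 UMIs of the class in a library). A further 7390 nuclei received no class, and 4.15% to 26.1% of a class's nuclei lay near the limits of the marker rule. Any 2 libraries shared 5 to 21 barcode sequences. Replicate 1 stood apart from replicate 2 in both genotypes. Nuclei with over 3 times the median UMIs of their class held 49.1% of oligodendrocyte UMIs in WT replicate 1 and 57.7% in DISC1-N replicate 1, against 9.85% and 14.8% in the replicate 2 libraries. The summed level of the 8 excitatory markers within oligodendrocytes moved with it, at 393 and 360 CPM in replicate 1 and 165 and 137 CPM in replicate 2, with 8 of 8 markers detected in each library. Nuclei of such depth also held 43.9% (WT) and 35.6% (DISC1-N) of excitatory UMIs in replicate 1, against 3.21% and 2.51% in replicate 2. In microglia they held 41.0% and 40.3% in replicate 1, against 15.9% and 8.78% in replicate 2. Leaving these deep nuclei out moved the mean level of 8 of the 80 pairs of gene and class by over 1.5 times. The values without them are given where those levels are described.

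Promoter sequence from RefSeq (GRCm38.p6) was matched for 8 of the 10 genes. No entry was matched for Tnik and Pcm1. The stretches before the starts of Disc1, Ndel1 and Nde1 are shown. The DISC1-N group carries the name of Disc1, and Ndel1 and Nde1 are paralogs with unlike class patterns. Capitals mark matches on either strand to 5 short motifs, and no matches overlapped. The GC box was searched as GGGCGG, which reads CCGCCC on the other strand. The CCAAT box was searched by those letters and the TATA box as TATAAA. The E-box was searched as CACGTG, which is its own reverse complement. The core of the cAMP response element was searched as TGACG, which reads CGTCA on the other strand. The Disc1 stretch is chr8:125053945-125054194 on the plus strand, outside annotated exons. The Ndel1 stretch is chr11:68853136-68853385 on the minus strand, inside the GENCODE span of the gene but in none of its exons. The Nde1 stretch is chr16:14163025-14163220 on the plus strand, and stops 54 bases before the start because those bases lie in an exon of Marf1, a gene of the opposite strand.
Disc1: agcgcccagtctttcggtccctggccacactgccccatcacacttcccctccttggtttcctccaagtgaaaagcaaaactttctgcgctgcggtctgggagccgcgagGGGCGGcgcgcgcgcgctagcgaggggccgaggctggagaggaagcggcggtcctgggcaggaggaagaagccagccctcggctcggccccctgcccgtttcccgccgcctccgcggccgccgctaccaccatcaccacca
Ndel1: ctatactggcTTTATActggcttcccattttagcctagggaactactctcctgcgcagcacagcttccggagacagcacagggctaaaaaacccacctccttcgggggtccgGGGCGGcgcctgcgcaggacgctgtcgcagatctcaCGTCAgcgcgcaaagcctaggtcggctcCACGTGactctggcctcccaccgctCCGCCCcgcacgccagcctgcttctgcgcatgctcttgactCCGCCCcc
Nde1: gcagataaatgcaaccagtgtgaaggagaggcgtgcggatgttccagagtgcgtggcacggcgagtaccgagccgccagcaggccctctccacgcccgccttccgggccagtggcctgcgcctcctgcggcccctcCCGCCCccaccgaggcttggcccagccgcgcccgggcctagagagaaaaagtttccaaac
Over the full windows of 300 bases, GC content was 71% for Disc1, 64.3% for Ndel1 and 67.7% for Nde1, with 33, 25 and 30 CpG sites, against medians of 52.7% and 7 over all 32851 promoter windows. Disc1 held 2 matches to GGGCGG, Ndel1 held 3 and Nde1 held 1, a motif found in 35.7% of all windows. The Ndel1 window also held 1 TATAAA (13.6% of all windows), 1 CACGTG (7.15%) and 3 TGACG (20.8%). The Nde1 window held 2 CCAAT (37.4%), both in the part not shown. The 4 Pde4b windows had 43.3% to 51.3% GC and 1 to 8 CpG sites, and the Pde4d window 39.7% GC.

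Disc1 was not a neuron-enriched transcript in these nuclei. Its level was highest in microglia, the resident immune cells, then in oligodendrocyte precursors and astrocytes, and was several-fold lower in both neuron classes and in mature oligodendrocytes. The plot of levels by cell class and library shows all 10 genes. In microglia Disc1 stood at 77.1 CPM in WT replicate 1, 57.4 in DISC1-N replicate 1, 101.5 in WT replicate 2 and 123 in DISC1-N replicate 2 (89.7 ± 28.5, SD, n = 4 libraries), from 52, 20, 52 and 70 UMIs. In the same order oligodendrocyte precursors gave 54.7, 55, 63.3 and 79.9 CPM (63.2 ± 11.8). Astrocytes gave 23.6, 25.6, 36.4 and 47.0 CPM (33.1 ± 10.8). Microglia were the highest class in 4 of 4 libraries, 1.42-fold above precursors, but the ranges of those neighbours overlapped. Precursors were 1.91-fold above astrocytes without overlap.

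**Figure D1:**
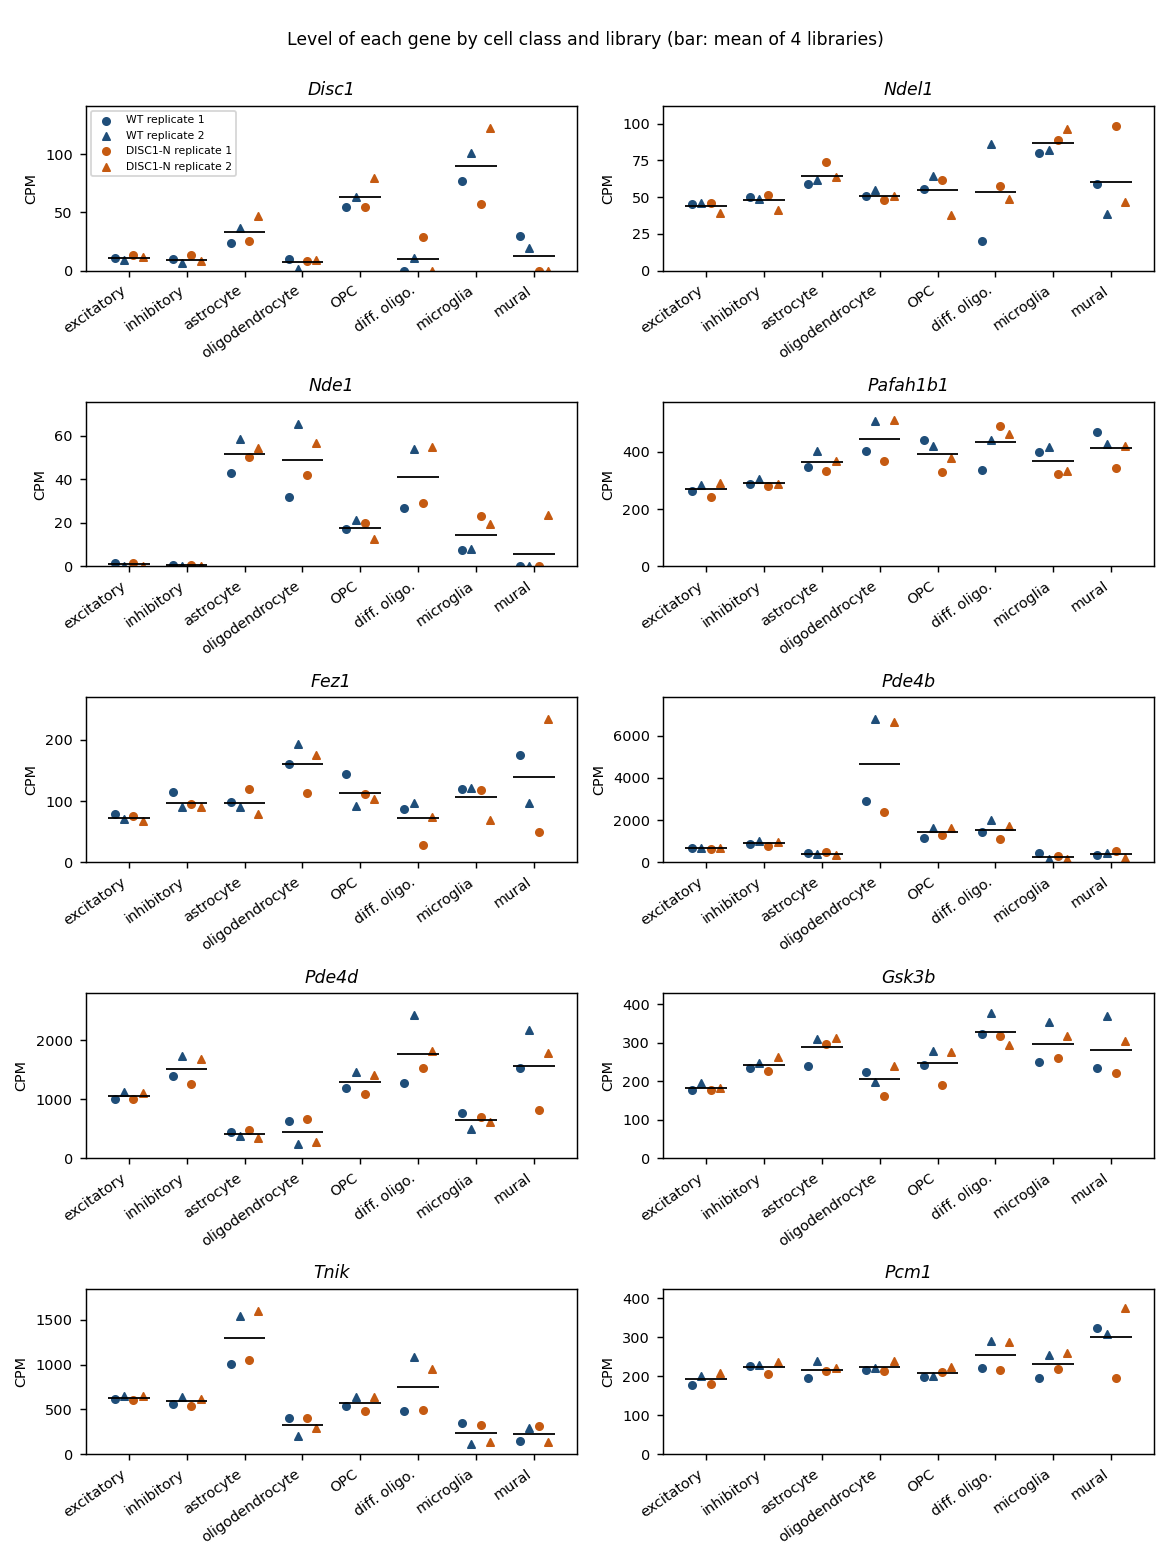
Level in CPM (y axis, linear, from 0) of each of the 10 genes in each of 8 cell classes (x axis), with 1 point per library and a bar at the mean of the 4 libraries. OPC stands for oligodendrocyte precursor and diff. oligo. for differentiating oligodendrocyte; Disc1 peaks in microglia (mean 89.7 CPM), Nde1 is near 0 in both neuron classes, and Pde4b peaks in oligodendrocytes (mean 4671 CPM).

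Excitatory neurons held 10.6, 13.7, 8.78 and 11.8 CPM of Disc1 (11.2 ± 2.06). Inhibitory neurons held 9.33 ± 2.81 CPM and oligodendrocytes 7.11 ± 3.63. Mural cells and differentiating oligodendrocytes gave 2 and 3 UMIs in all (1 in mural cells without deep nuclei), too few to place them. The 5 classes below astrocytes overlapped in range. edgeR's quasi-likelihood test of each class against the mean of the other 7 placed Disc1 higher in microglia (log2 2.49, SE 0.25, adjusted p = 9.14e-10), in precursors (log2 2.12, SE 0.24, adjusted p = 3.59e-08) and in astrocytes (log2 1.21, SE 0.26, adjusted p = 0.000293). The same test placed it lower in inhibitory neurons (log2 -1.01, SE 0.36, adjusted p = 0.0249) and oligodendrocytes (log2 -1.36, SE 0.43, adjusted p = 0.0168). A class counted as higher or lower at an adjusted p under 0.05 and a log2 difference of at least 1. With a stricter marker rule the astrocyte difference was 0.90 and no longer reached 1. That fit held no differentiating oligodendrocytes or mural cells, so the mean compared against was that of fewer classes. Without deep nuclei the microglial level was 113 ± 25.0 CPM, 1.72-fold above precursors, and the oligodendrocyte level 4.21 ± 2.99.

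The share of nuclei with a Disc1 UMI stood in another order than the level, over classes of unlike depth. A Disc1 UMI was found in 11.7% of excitatory nuclei (exact 95% interval 10.9% to 12.6%, median 9254 UMIs a nucleus) and in 11.7% of microglial nuclei (10.1% to 13.5%, median 1074 UMIs). Precursors had the highest share at 12.4% (median 2129 UMIs), while astrocytes had 7.38%, inhibitory neurons 4.37% (median 4603 UMIs) and oligodendrocytes 1.47%. After thinning every nucleus to 1000 UMIs, the shares were 10.4% in microglia (581 nuclei left out), 7.25% in precursors, 3.49% in astrocytes, 1.19% in excitatory neurons, 0.893% in inhibitory neurons and 0.334% in oligodendrocytes. Intervals cover counting error only. The thinned shares of these 6 classes stand in the same order as their CPM values.

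Genes whose class pattern was most like that of Disc1, by Pearson correlation of log2(CPM + 1) over the 8 class means among 9801 candidate genes, were Rnf180 (r = 0.94), Apobec3 (r = 0.93) and Entpd1 (r = 0.93). These means share libraries and depth, and those of Disc1 in mural cells and differentiating oligodendrocytes rest on too few UMIs to place. The r values are therefore descriptions. Of the 9 partners, Ndel1 had the closest pattern to Disc1 (r = 0.75) and Pde4b the most opposite one (r = -0.50).

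Of the dynein regulators, Ndel1 and Pafah1b1 were present in every class within narrow ranges, whereas their partner Nde1 was near 0 in both neuron classes and higher in glia. Ndel1, the adaptor that links LIS1 to dynein, ranged from 44.1 ± 3.21 CPM in excitatory neurons to 86.9 ± 7.46 in microglia, a 1.97-fold span. Its microglial values were 80.1, 89.0, 82.0 and 96.5 CPM, above those of astrocytes (64.4 ± 6.54) in 4 of 4 libraries. No class passed the limit of 1 for Ndel1, with log2 0.54 (edgeR adjusted p = 0.00220) in microglia. The other classes lay between 47.9 and 60.6 CPM on average and overlapped.

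Pafah1b1 encodes LIS1, the dynein regulator whose loss in people causes a smooth cortex. It was lowest in excitatory (264, 242, 283 and 292 CPM, mean 270 ± 22.3) and inhibitory neurons (291 ± 10.9). The 6 other classes had means of 364 to 447 CPM and overlapped, with oligodendrocytes at 402, 368, 507 and 510 CPM. Astrocytes, the lowest of these 6, lay 1.25-fold above inhibitory neurons without overlap. The oligodendrocyte difference of log2 0.43 (edgeR adjusted p = 0.00306) stayed below the limit of 1.

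Nde1, the paralog of Ndel1, gave 43.0, 50.2, 58.3 and 54.1 CPM in astrocytes (51.4 ± 6.52) and 31.7, 41.8, 65.4 and 56.6 in oligodendrocytes (48.9 ± 15). Differentiating oligodendrocytes held 41.2 ± 15.4 CPM, and these 3 classes overlapped. Precursors held 17.7 ± 3.77 CPM and microglia 14.4 ± 7.95, also overlapping. Excitatory neurons gave 1.59, 1.67, 0.298 and 0.401 CPM, from 78 UMIs in 5574 nuclei, and the 2 replicate 1 libraries were the high ones. Inhibitory neurons held 2 Nde1 UMIs in each library (0.487 ± 0.174 CPM). The astrocyte mean was 106-fold that of inhibitory neurons, and no library of either neuron class reached the lowest value of any glial class named here.

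edgeR placed Nde1 higher in astrocytes (log2 2.91, SE 0.24, adjusted p = 1.66e-11), oligodendrocytes (log2 2.75, SE 0.26, adjusted p = 4.58e-10) and differentiating oligodendrocytes (log2 2.37, SE 0.58, adjusted p = 0.00636). The last call rests on 20 UMIs and was lost without DISC1-N replicate 2, when no gene of the 10 was called higher in that class. Nde1 was lower in excitatory (log2 -3.22, SE 0.80, adjusted p = 0.00109) and inhibitory neurons (log2 -4.83, SE 1.05, adjusted p = 0.000425). Without deep nuclei the excitatory level was 0.619 ± 0.459 CPM and the oligodendrocyte level 64.9 ± 11.

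The balance of the paralogs differed accordingly. Nde1 made up 44.3% ± 3.71 (SD, n = 4) of the summed Nde1 and Ndel1 UMIs in astrocytes, with libraries from 40.5% to 48.7%, and 48.0% ± 7.18 in oligodendrocytes. The share was 24.4% ± 0.730 in precursors, with all libraries within 23.3% to 25.0%. It was 2.14% ± 1.52 in excitatory neurons (1.36% ± 0.970 without deep nuclei) and 0.991% ± 0.282 in inhibitory neurons. In microglia it was 8.47% and 8.70% in the WT libraries and 20.5% and 16.7% in the DISC1-N libraries. These rest on only 28 Nde1 UMIs in all, beside 182 of Ndel1, and the genotype difference in this share was not tested. Mural cells had 1 Nde1 UMI of 11. The Nde1 start overlaps Marf1 on the other strand, and the sources used here do not state the strand setting of the counting. Marf1 stood at 97.7 ± 10.9 CPM in excitatory and 90.0 ± 9.54 in inhibitory neurons, where Nde1 was below 2 CPM in every library.

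**Figure D2:**
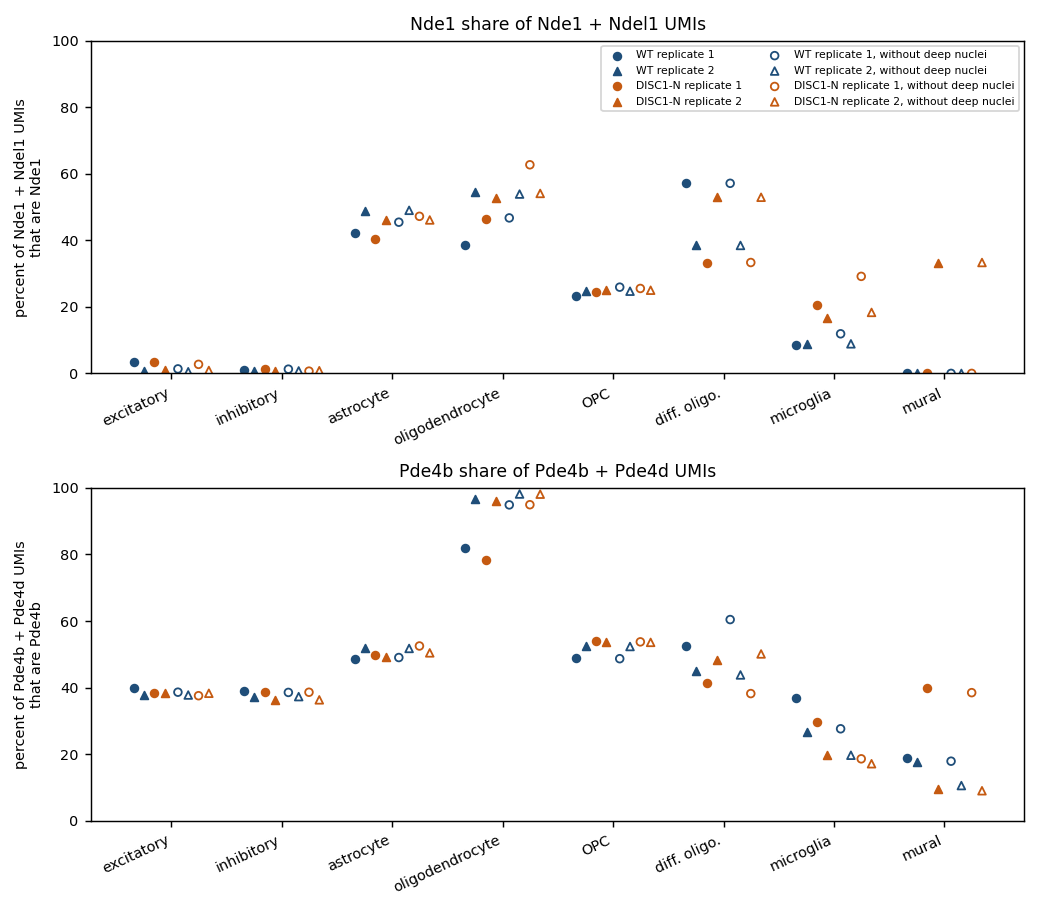
Share (percent, y axis from 0 to 100) of Nde1 in the summed Nde1 and Ndel1 UMIs (top) and of Pde4b in the summed Pde4b and Pde4d UMIs (bottom) by cell class (x axis), 1 point per library, filled for all nuclei and open without deep nuclei. Nde1 holds under 4% in every neuronal library and 38.5% to 54.4% in oligodendrocytes, and Pde4b holds 78.2% to 96.7% in oligodendrocytes.

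Fez1, the kinesin adaptor, had its highest mean in oligodendrocytes at 160, 113, 194 and 175 CPM (161 ± 34.5), followed by mural cells (139 ± 82.4), precursors (113 ± 22.8) and microglia (107 ± 25.6). Inhibitory neurons (97.6 ± 11.8 CPM), astrocytes (96.6 ± 17.1), excitatory neurons (73.2 ± 5.28) and differentiating oligodendrocytes (71.7 ± 30.2) followed. Every pair of neighbours in this order overlapped. The oligodendrocyte difference was log2 0.84 (edgeR adjusted p = 3.03e-05), below the limit of 1.

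The cAMP phosphodiesterases diverged in mature oligodendrocytes. Pde4b had its highest level there but was also present in the earlier stages and in neurons. Pde4d was high in neurons, precursors and differentiating oligodendrocytes but low in mature ones. Pde4b reached 2901 CPM in WT replicate 1, 2364 in DISC1-N replicate 1, 6768 in WT replicate 2 and 6650 in DISC1-N replicate 2 in oligodendrocytes (4671 ± 2364), the highest class in 4 of 4 libraries and 3.02-fold above the next without overlap. The replicate 1 libraries were the low ones in both genotypes. Without deep nuclei the values were 3905, 3805, 7051 and 7036 CPM, still apart by replicate. edgeR gave log2 2.90 (SE 0.20, adjusted p = 5.19e-13) for oligodendrocytes over the other classes.

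Differentiating oligodendrocytes (1548 ± 386 CPM) and precursors (1146, 1291, 1617 and 1636 CPM, mean 1422 ± 243) overlapped in Pde4b. Inhibitory neurons (885, 793, 1022 and 955 CPM, mean 914 ± 98.1) and excitatory neurons (661, 629, 684 and 686 CPM, mean 665 ± 26.7) followed, each apart from its neighbours in range. Astrocytes held 411 ± 63.3 CPM, mural cells 386 ± 153 and microglia 446, 296, 182 and 153 CPM (269 ± 133). edgeR placed Pde4b lower in microglia (log2 -2.04, adjusted p = 1.5e-06). Microglia without deep nuclei had 134 ± 40.8 CPM. The 8 excitatory markers summed to 467 and 460 CPM in the replicate 1 microglia and to 263 and 200 CPM in replicate 2, 8 of 8 detected in each.

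Pde4d gave 638, 660, 233 and 267 CPM in oligodendrocytes (449 ± 231) and 412 ± 64.3 in astrocytes, the lowest classes. Without deep nuclei the oligodendrocyte values were 210, 202, 131 and 135 CPM. Excitatory neurons (1061 ± 65.4 CPM), precursors (1294 ± 176), inhibitory neurons (1518 ± 229), mural cells (1572 ± 573) and differentiating oligodendrocytes (1767 ± 496) were the high classes. Neighbours among them overlapped. edgeR placed Pde4d lower in astrocytes (log2 -1.23, adjusted p = 8.65e-05) and oligodendrocytes (log2 -1.14, adjusted p = 0.000387). The inhibitory difference was log2 0.91 (edgeR adjusted p = 0.000397), below the limit of 1. It was 1.48 with the stricter marker rule, 1.46 with classes by clusters and 1.36 without deep nuclei, all past 1. Those fits lacked mural cells, differentiating oligodendrocytes or both, which are high in Pde4d, so the mean compared against differed. The inhibitory level itself was 1518 CPM with all nuclei and 1524 CPM without deep nuclei.

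Pde4b therefore held 82.0%, 78.2%, 96.7% and 96.1% of the summed Pde4b and Pde4d UMIs in oligodendrocytes, and 94.9% to 98.2% without deep nuclei. In differentiating oligodendrocytes the share was 46.8% ± 4.75 and in precursors 52.3% ± 2.35. Both neuron classes were near each other, at 38.6% ± 0.897 in excitatory and 37.7% ± 1.31 in inhibitory neurons. Astrocytes stood at 50.0% ± 1.39 and microglia at 28.2% ± 7.03, or 20.7% ± 4.70 without deep nuclei. The oligodendrocyte libraries lay above every library of the 7 other classes.

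Within inhibitory neurons Pde4b differed by subtype. Foxp2 encodes a transcription factor of amygdala GABA neurons. Nuclei with at least 2 Foxp2 UMIs, and more than of Vip, Sst or Pvalb each, held 1685, 1694, 1932 and 2002 CPM of Pde4b (1828 ± 163). The Vip, Sst and Pvalb nuclei were taken by the same rule. Nuclei with Vip UMIs held 530 ± 117 CPM and those with Sst UMIs 284.8, 189.4, 258.0 and 245.1 (244 ± 40.2). Only 19 nuclei qualified by Pvalb, with 3 Pde4b UMIs. No Foxp2 library overlapped the Vip or Sst libraries. Pde4d did not show this order, with 1392 ± 197 CPM in Foxp2, 1843 ± 429 in Vip and 1390 ± 127 in Sst nuclei, which overlapped. Tnik was 744 ± 56.9 CPM in Foxp2, 519 ± 97.0 in Vip and 447 ± 31.2 in Sst nuclei, with Foxp2 above both without overlap. These subtype values are descriptions and were not tested.

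**Figure D3:**
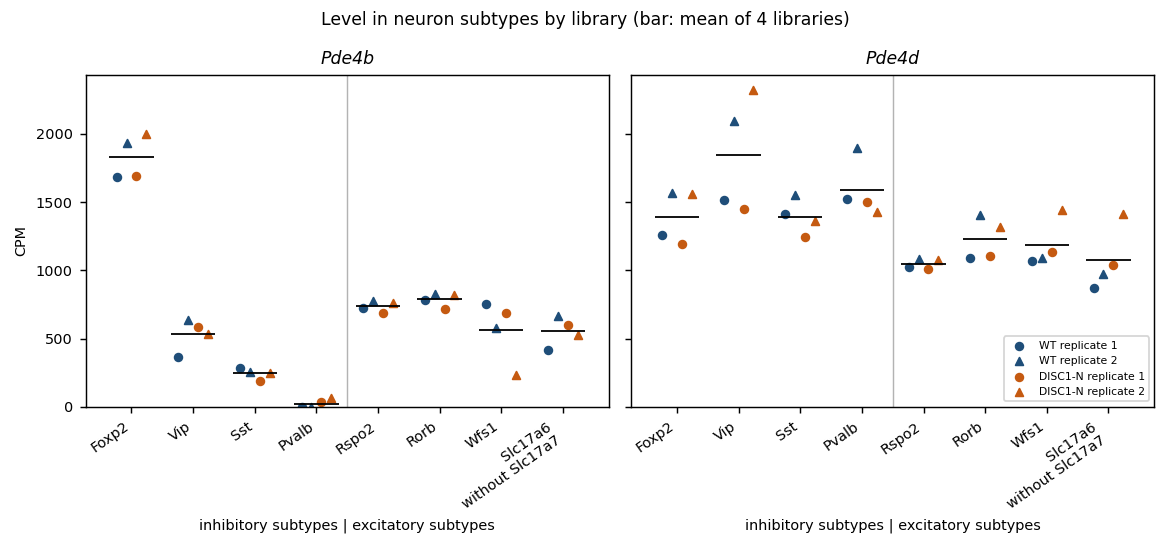
Level in CPM (y axis, linear, from 0) of Pde4b (left) and Pde4d (right) by neuron subtype, 1 point per library and a bar at the mean of the 4 libraries. Nuclei of a subtype had at least 2 UMIs of the gene named on the x axis. Inhibitory subtypes also needed more UMIs of that gene than of each other inhibitory subtype gene. The Slc17a6 nuclei had no Slc17a7 UMI, and excitatory subtypes may overlap. Pde4b lies at 1685 to 2002 CPM in Foxp2 nuclei, above every other subtype, while the Pde4d ranges of the Foxp2, Vip and Sst nuclei overlap.

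Among excitatory subtypes, Pde4b was 736.5 ± 41.4 CPM in nuclei with Rspo2 UMIs and 788 ± 49.7 in those with Rorb UMIs, overlapping. In excitatory nuclei with at least 2 UMIs of Wfs1, the gene in the series title, Disc1 gave 15.3, 12.2, 10.7 and 46.0 CPM from 55, 44, 15 and 6 nuclei, 80 UMIs in all. The high value is that of DISC1-N replicate 2 with its 6 nuclei. Rspo2 nuclei had 10.6 ± 2.25 CPM of Disc1 and Rorb nuclei 11.4 ± 0.924.

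Of the kinases, Tnik peaked in astrocytes, at 1009, 1052, 1544 and 1601 CPM (1301 ± 314), the highest class in 4 of 4 libraries. The next class, differentiating oligodendrocytes (749 ± 310), overlapped it, while excitatory (631 ± 24.0) and inhibitory neurons (589 ± 46.5) did not. edgeR gave log2 1.75 (SE 0.21, adjusted p = 2.39e-08) for astrocytes. Precursors held 573 ± 82.7 CPM, oligodendrocytes 326 ± 99.5 (184 ± 47.7 without deep nuclei), microglia 351, 327, 113 and 137 (232 ± 125) and mural cells 224 ± 93.8 (143 ± 96.2 without deep nuclei). Tnik was lower in microglia (log2 -1.42), and their level was 107 ± 73.7 CPM without deep nuclei. Mural nuclei had 1547 to 2861 CPM of summed astrocyte markers, 2 to 4 of 10 detected, and their part in the mural results was not tested. With classes by clusters the mural differences of Tnik and Pde4b, log2 -1.78 and -1.79 here, were 0.030 and 0.25 and no longer called. That fit held no differentiating oligodendrocytes, so the mean compared against also differed.

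Gsk3b, a kinase that DISC1 inhibits, differed little between classes. Its means ran from 183 ± 8.68 CPM in excitatory neurons to 328 ± 35.8 in differentiating oligodendrocytes, a 1.79-fold span, and neighbours in the order overlapped. The astrocyte difference was log2 0.37 (edgeR adjusted p = 0.00524), below the limit. Pcm1, the centriolar satellite scaffold, spanned 1.57-fold, from 192 ± 14.5 CPM in excitatory neurons to 301 ± 75.3 in mural cells. All neighbouring classes overlapped, and Pcm1 passed the test in no class.

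In all, 3 of the 10 genes were called higher in astrocytes (Tnik, Disc1 and Nde1), where 13.9% of the 13423 genes tested were. For oligodendrocytes the count was 2 (Pde4b and Nde1; 8.9% of all genes), for precursors 1 (Disc1; 9.57%), for differentiating oligodendrocytes 1 (Nde1; 5.19%) and for microglia 1 (Disc1; 12.3%). None was called higher in excitatory (15.5%) or inhibitory neurons (11.8%) or in mural cells (3.52%). Lower calls numbered 1 in excitatory neurons (8.58%), 2 in inhibitory neurons (6.24%), 2 in astrocytes (7.6%), 2 in oligodendrocytes (3.45%), 2 in microglia (7.73%) and 2 in mural cells (4.08%), with 0 in precursors (4.12%) and differentiating oligodendrocytes (1.44%). Of all genes 51% were called higher in at least 1 class.

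By the same measure over 8 class means, the genes nearest to the partners in pattern were as follows. For the dynein regulators they were Naa60, Cd164 and Ctsd for Ndel1 (r = 0.98 for each), Agbl3, Hist1h2bc and Tmem39a for Nde1 (r = 0.96, 0.96 and 0.95) and Eid1, Mff and Gab1 for Pafah1b1 (r = 0.97 or above). Fez1 was nearest to Clip3, Rnf141 and Arl2 (r = 0.97, 0.97 and 0.96). Pde4b was nearest to Adam32, Bche and Mta3 (r = 0.97, 0.96 and 0.95), and Pde4d to Dipk1b, Tsc22d1 and Sema3e (r = 0.96, 0.95 and 0.94). Gsk3b was nearest to Dhdh, Rnf214 and Gtpbp4 (r = 0.95, 0.94 and 0.93), Tnik to Spats1, Megf9 and Fut9 (r = 0.97, 0.95 and 0.93) and Pcm1 to Pelo, Med20 and Rce1 (r = 0.97, 0.97 and 0.96). Between members, Nde1 and Pafah1b1 followed each other most (r = 0.82), with a mural Nde1 mean that rests on 1 UMI.

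The wider DISC1 pathway was followed through 74 genes in 6 lists, of which 73 were tested. In excitatory neurons 10 of them (13.7%) were called higher, against 15.5% of all genes, and in inhibitory neurons 9 (12.3%), against 11.8%. Oligodendrocytes had 7 higher (9.59%, all genes 8.9%), microglia 6 (8.22%, all genes 12.3%) and differentiating oligodendrocytes 4 (5.48%, all genes 5.19%). Astrocytes had 3 (4.11%, all genes 13.9%), precursors 2 (2.74%, all genes 9.57%) and mural cells 1 (1.37%, all genes 3.52%). These shares were set side by side and not tested. The genes called are given by list.

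The dynein, dynactin and LIS1 pathway list had a median of log2 0.03 in excitatory neurons, against 0.10 for all genes. Of its 15 genes none was lower there and 3 were higher (all genes 15.5%). They were Dync1i1, a dynein intermediate chain (log2 1.94, edgeR adjusted p = 8.33e-11), Dync1i2 (log2 1.03) and Dcx, doublecortin (log2 1.38). Inhibitory neurons had 2 higher (all genes 11.8%), Dcx (log2 2.12) and Dync1i1 (log2 1.24). Oligodendrocytes had 2 (all genes 8.9%), Dync1li2 (log2 1.06) and Bicd2 (log2 1.09).

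Of 13 tested cAMP and PDE4 genes, 3 were higher in excitatory neurons (all genes 15.5%) and 4 in inhibitory neurons (all genes 11.8%). The list medians were 0.18 and 0.59, and those of all genes 0.10 and 0.07. Pde4a, another gene of the PDE4 family, was at log2 1.75 in excitatory neurons (edgeR adjusted p = 5.35e-10) and 1.02 in inhibitory neurons. Prkar2b, a regulatory subunit of protein kinase A, was at 1.14 and 1.47, and Akap6, an anchor of that kinase, at 1.08 and 1.27. Pde4dip was higher in inhibitory neurons (log2 1.04) and lower in astrocytes (log2 -1.34). In mural cells Pde4c gave 29.3, 73.7, 38.7 and 164 CPM (edgeR adjusted p = 1.21e-06), and it was at 0 in every library of 4 other classes, so no fold is given.

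Among 11 centrosome and cilium genes, microglia had 3 higher (all genes 12.3%). They were Cep152, a centriole duplication factor (log2 4.43, edgeR adjusted p = 1.47e-15), Cep192 (log2 1.15) and Cntrob (log2 1.70). Cntrob was also higher in excitatory (log2 2.03) and inhibitory neurons (log2 1.95), the latter with Bbs4 (log2 1.13). Precursors had Ninl (log2 1.00). Of 12 GSK3, Wnt and AKT genes, none was higher in excitatory (all genes 15.5%) or inhibitory neurons (all genes 11.8%). Dixdc1, a DISC1-binding Wnt scaffold, was higher in oligodendrocytes (log2 2.57, edgeR adjusted p = 1.68e-11) and differentiating oligodendrocytes (log2 1.59) and lower in astrocytes (log2 -1.53). Cdk5 was higher in oligodendrocytes (log2 1.31) and Akt1 in microglia (log2 1.54).

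Of 10 synaptic and TNIK-linked genes, excitatory neurons had 3 higher (all genes 15.5%). They included Kalrn, a Rac activator of dendritic spines (log2 1.88, edgeR adjusted p = 7.88e-08), and Cit (log2 1.33). Cit was also higher in inhibitory neurons (log2 1.76). Of the kinases related to TNIK, Mink1 was higher in oligodendrocytes (log2 1.64) and Map4k4 in differentiating oligodendrocytes (log2 1.63), with Rap2a (log2 1.56). Rac1 was higher in microglia (log2 1.04). Of 12 transport genes, Fez2, the paralog of Fez1, was higher in microglia (log2 1.92, adjusted p = 6.16e-11) and lower in inhibitory neurons (log2 -1.14). Trak1, a mitochondrial motor adaptor, and Tubb2b, a tubulin, were higher in astrocytes (log2 1.45 and 1.35), and Kif1b and Zfp365 in oligodendrocytes (log2 1.05 and 1.54), Zfp365 also in differentiating ones (log2 1.92).

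Of the 73 tested list genes, 9 were called lower in microglia (12.3%, all genes 7.73%) and 7 in mural cells (9.59%, all genes 4.08%). Astrocytes had 4 (5.48%, all genes 7.6%), inhibitory neurons 3 (4.11%, all genes 6.24%), oligodendrocytes 2 (2.74%, all genes 3.45%), differentiating oligodendrocytes 2 (2.74%, all genes 1.44%), excitatory neurons 1 (1.37%, all genes 8.58%) and precursors 1 (1.37%, all genes 4.12%). Those lower in microglia included Bicd1 (log2 -1.39), Akap6 (-1.13), Dixdc1 (-1.07), Ccdc88a (-1.06), the ubiquitin ligase gene Nedd4 (-1.14), Kalrn (-1.02) and Zfp365 (-1.12). Those lower in mural cells included Akap9 (-1.39), Akap6 (-1.30), Dync1li2 (-1.16), Ccdc88a (-1.23), Map4k4 (-1.17) and Kif1b (-1.27). Astrocytes were also low in Prkar2b (-1.10) and Dcx (-1.20), oligodendrocytes in Trak1 (-1.19), precursors in Pde4a (-1.13) and differentiating oligodendrocytes in Cep290 (-1.35) and Dlg4 (-1.49). Excitatory neurons were low in Tubb2b (-1.86), and inhibitory neurons in Map4k4 (-1.06) and Zfp365 (-1.05).

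The genotype comparison asked whether Disc1 and its partners differ in DISC1-N nuclei. Because the DISC1-N construct is not stated and counts come from the 3′ end, the Disc1 values do not check the genotype. None of the 10 genes passed edgeR's test without a block for replicate number in any class where it was tested. None of all genes did either (0% called in each class). Libraries of the same number deviated alike (r = 0.30 to 0.79 over the classes), a spread that this fit counts as error. Its lack of calls therefore does not show that the genotypes are alike. After the filter on low counts, 9 of the 10 were tested in inhibitory neurons, 7 in differentiating oligodendrocytes and 6 in mural cells. Disc1 in excitatory neurons had the DISC1-N libraries above the WT library of the same replicate number and above both WT libraries, at 13.7 and 11.8 CPM against 10.6 and 8.78. The log2 difference was 0.37 within replicate 1 (95% counting interval 0.12 to 0.63) and 0.42 within replicate 2 (0.08 to 0.77). edgeR gave log2 0.39 (SE 0.17, adjusted p = 1.00). Files of replicate 1 were made with another Cell Ranger version than those of replicate 2, so the replicate number is also a processing batch. With it as a block edgeR gave 0.39 (SE 0.13, adjusted p = 0.531).

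Disc1 was higher in DISC1-N within both replicate numbers in 4 of 8 classes, lower within both in 1 (mural cells, 2 UMIs in all) and opposite in the other 3. Besides excitatory neurons, the higher classes had log2 values of 0.46 and 0.32 in inhibitory neurons, 0.12 and 0.37 in astrocytes, and 0.01 and 0.34 in precursors, with counting intervals that include 0 in each case. In microglia they were -0.42 and 0.27. The difference in excitatory neurons exceeded that in microglia by 0.34 (SE 0.56), that in astrocytes by 0.09 (SE 0.55) and that in precursors by 0.20 (SE 0.55). edgeR's interaction test called none of these, and none of the 13423 genes against any class.

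**Figure D4:**
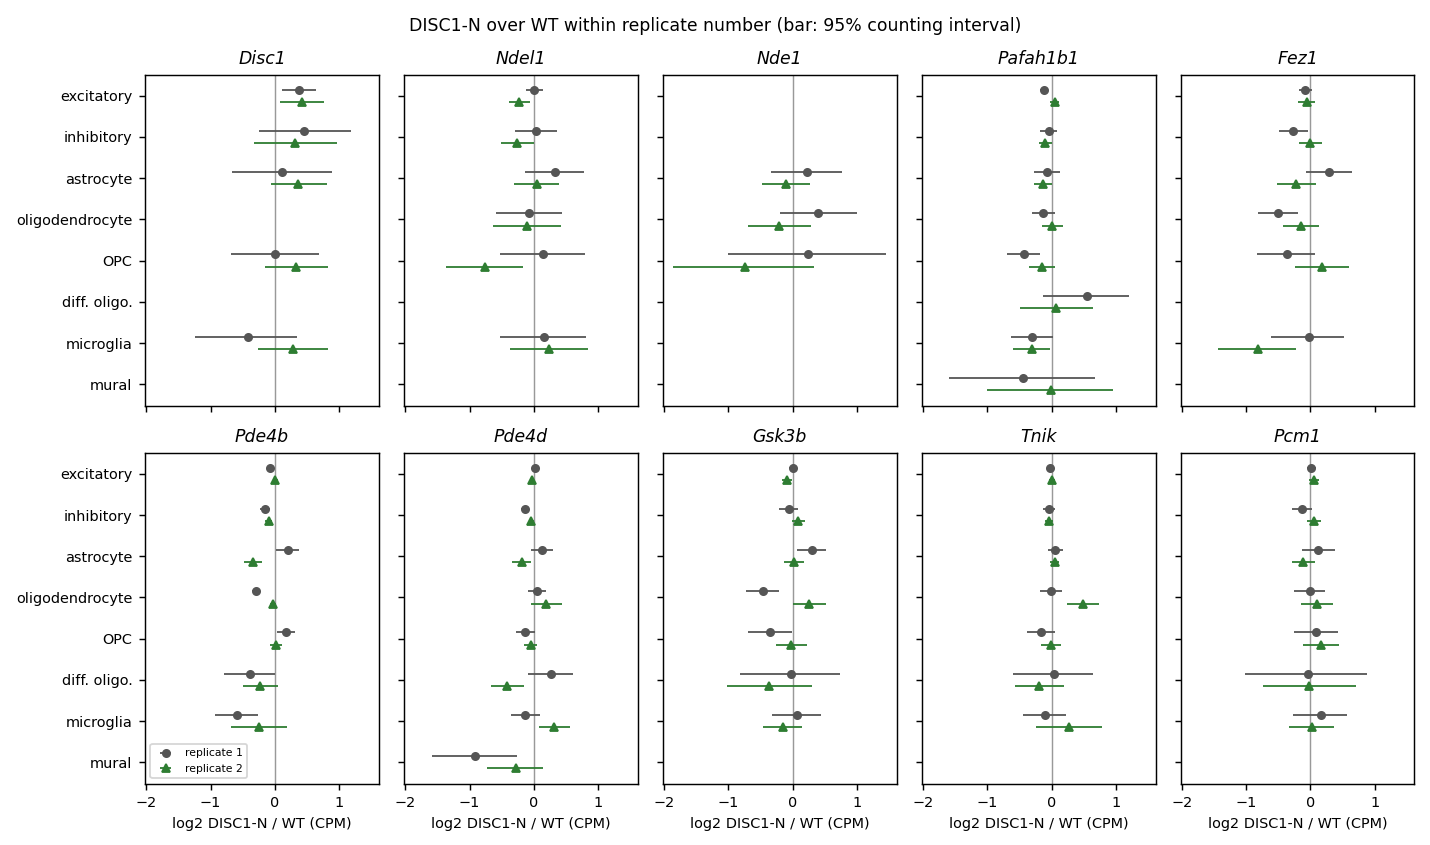
Log2 ratio of DISC1-N over WT CPM (x axis) within replicate 1 and within replicate 2 for each gene and cell class (y axis), with 95% counting intervals, for the 64 of 80 pairs of gene and class with at least 10 UMIs in every library. Disc1 in excitatory neurons lies to the right of 0 in both replicates (0.37 and 0.42), and most other pairs lie near 0 or on opposite sides.

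Among the dynein regulators, Nde1 in microglia gave 7.42 and 7.81 CPM in the WT libraries (5 and 4 UMIs) and 23.0 and 19.3 CPM in the DISC1-N libraries (8 and 11 UMIs). Its log2 ratio was 1.63 within replicate 1 (-0.16 to 3.59) and 1.31 within replicate 2 (-0.45 to 3.41), so both intervals include 0. edgeR gave log2 1.44 (SE 0.67, adjusted p = 1.00), and 1.46 (SE 0.58, adjusted p = 0.874) with the block. Pafah1b1 in precursors gave 442 and 421 CPM in the WT libraries against 328 and 378, log2 -0.26 (SE 0.30, edgeR adjusted p = 1.00). Within replicate 1 the difference was -0.43 (-0.69 to -0.18) and within replicate 2 -0.16 (-0.36 to 0.05). In microglia Pafah1b1 gave 400 and 416 CPM in WT against 325 and 335, log2 -0.30 and -0.31 within the replicates.

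For Ndel1 in microglia the WT libraries held 80.1 and 82.0 CPM and the DISC1-N libraries 89.0 and 96.5, with log2 0.15 and 0.24 and intervals that include 0. Without deep nuclei the direction turned in both replicates, with 93.0 and 95.1 CPM in WT against 81.8 and 94.2. For Fez1 in microglia the WT libraries held 120 and 121 CPM and the DISC1-N libraries 118 and 68.4, so the gap came from DISC1-N replicate 2, and without deep nuclei the genotypes overlapped. For the phosphodiesterases the genotypes overlapped in all 8 classes with all nuclei. Without deep nuclei Pde4d was at 316 and 323 CPM in DISC1-N astrocytes, below the 348 and 344 of WT, and at 548 and 560 in DISC1-N microglia, above the 508 and 418 of WT. Pde4b in microglia was log2 -0.59 within replicate 1 (-0.93 to -0.27) and -0.25 within replicate 2 (-0.69 to 0.19). With the block it was -0.43 (SE 0.20, edgeR adjusted p = 0.939). Without deep nuclei the direction of Pde4b in microglia was no longer the same in both replicates, and its mean fell from 269 to 134 CPM. Pde4b and Pde4d in excitatory neurons were at -0.03 (SE 0.21) and -0.01 (SE 0.24). Tnik overlapped in all 8 classes, with log2 -0.01 (SE 0.21) in excitatory neurons and 0.07 (SE 0.48) in astrocytes. Gsk3b in excitatory neurons was at -0.05 (SE 0.18) and Pcm1 at 0.04 (SE 0.20).

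Over all 80 pairs of gene and class, the DISC1-N libraries lay above both WT libraries in 6 and below both in 8, and overlapped in 66. The 6 were Disc1 in excitatory neurons, Ndel1 in astrocytes and microglia, Nde1 in microglia, Pafah1b1 in differentiating oligodendrocytes and Pcm1 in precursors. Of the 8, Pafah1b1 gave 4 (inhibitory neurons, precursors, microglia and mural cells), Fez1 gave 2 (differentiating oligodendrocytes and microglia), Gsk3b gave 1 (differentiating oligodendrocytes) and Disc1 gave 1 (mural cells, 1 UMI in each WT library and 0 in DISC1-N). Per class, 1 of 10 genes lay above in excitatory neurons, where 8.93% of all tested genes did, 1 in astrocytes (9.13%), 2 in microglia (9.8%), 1 in precursors (10.2%) and 1 in differentiating oligodendrocytes (13.5%). Those below numbered 0 in excitatory neurons (7.83%), 1 in inhibitory neurons (11.2%), 1 in precursors (12%), 2 in microglia (9.77%), 2 in differentiating oligodendrocytes (10.4%) and 2 in mural cells (8.95%). The counts run over all 10 genes, while the shares cover only genes that passed the filter on low counts. Of the 10, 9 passed it in inhibitory neurons, 7 in differentiating oligodendrocytes and 6 in mural cells. Counts of 0 to 2 of 10 are too small to set apart from these shares, and no test was run. Within replicate numbers, 18 pairs were higher in both, 25 lower in both and 37 opposite. Without deep nuclei 7 pairs lay above and 10 below, of which 4 and 5 were among those named, and 14 were higher in both replicates, 21 lower in both and 45 opposite. Disc1 in excitatory neurons, Nde1 in microglia, Pafah1b1 in differentiating oligodendrocytes and Pcm1 in precursors were the 4 that stayed above.

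edgeR without a block called 0 genes in each class (0% of 749 to 17209 tested), and DESeq2 and limma-voom also called 0. At an unadjusted p under 0.05 edgeR without a block had from 15 genes in mural cells (of 749) to 117 in inhibitory neurons (of 13928). In excitatory neurons 69 of 17209 passed and in oligodendrocytes 16 of 10906. Each of these is a smaller share than the 0.05 awaited with no difference, so this fit was conservative. It had 0 of the members tested in each class. With the block, edgeR called 31 genes in excitatory neurons (0.18%), 154 in inhibitory neurons (1.11%), 33 in oligodendrocytes (0.303%), 7 in precursors (0.0686%) and 5 in microglia (0.0551%), and no member. At an unadjusted p under 0.05 edgeR with the block had 1 member in excitatory neurons, where 1152 of 17209 genes passed. It had 1 in precursors (564 of 10207 genes), 2 in microglia (475 of 9071 genes) and none in the other classes. Without the block the median log2 of the 10 members in excitatory neurons was -0.02, and that of all genes -0.01.

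No gene of the 6 pathway lists was called between the genotypes without the block. Their medians in excitatory neurons lay between -0.09 (cAMP and PDE4 genes, 10 of 13 below 0) and -0.00 (dynein genes, 9 of 15 below 0). The lowest p values there belonged to Bbs1 (log2 -0.25), Ninl (0.17), Dlg4 (-0.20), Rac1 (-0.13), Cdk5 (0.22), Ctnnb1 (-0.15), Atf5 (-0.45), Prkar2b (-0.15), Tubb2b (-0.29), Immt (-0.09), Ywhae (-0.13) and Bicd2 (0.13), none called. With the block 1 gene was called. Ywhae, which encodes the 14-3-3 protein that binds phosphorylated NDEL1, gave 187 and 157 CPM in WT inhibitory neurons against 150 and 124 in DISC1-N (log2 -0.32, SE 0.09, edgeR adjusted p = 0.0300). Both DISC1-N libraries lay below both WT libraries, and without the block the adjusted p was 1.00. Of all genes in inhibitory neurons, 1.11% were called with the block and 11.2% lay below both WT libraries. Whether 1 call among the list genes exceeds that share was not tested.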

How the data were processed

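Single-nucleus RNA was counted in 4 libraries, 2 of WT and 2 of DISC1-N tissue, grouped by their labels. The deposited files hold UMI counts per gene and barcode, not normalized, on mm10 per the submitters' processing notes. Replicate 1 counts came from Cell Ranger 7.0.0 and replicate 2 counts from 6.0.2, per the file headers. Only 7.0.0 is named in the submitters' processing notes. The sources used here do not state whether intronic reads were counted, or on which strand. Depth was 48439711 (WT replicate 1), 40954622 (DISC1-N replicate 1), 37840301 (WT replicate 2) and 39643489 UMIs (DISC1-N replicate 2).

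A minimum of 500 genes and a mitochondrial share of UMIs up to 5% kept 26850 nuclei. Those of highest Scrublet score were then removed at 0.8% per 1000 nuclei (1518 removed), which left 25332. A nucleus was given a class with at least 3 UMIs from at least 2 markers of the class and at least 2 times as many as for any other class. The 125 endothelial nuclei were not tested, since WT replicate 1 had 18. edgeR 4.0.16 in R 4.3.3 tested the summed counts of a class by library, with its quasi-likelihood test, filterByExpr, TMM factors and Benjamini-Hochberg adjustment over all genes tested in a class. Classes were compared in 1 fit with the library as a block. CPM values are the summed counts of a class scaled to 1000000 UMIs. Ratio intervals within a replicate number cover counting error only.

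The 10 genes, the 74 pathway genes and the tests were chosen with earlier results of these data known. Named genes are the 10 members, every pathway gene called in a class (a few are not reported here), the 2 of lowest p of each list in excitatory neurons, and the genes of most like class pattern with a mean of at least 20 CPM in some class. Coordinates are 1-based on mm10, with exons from GENCODE vM21.

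Alternatives were DESeq2 1.42.0 and its size factors, limma 3.58.1 (voom), no filter on low counts, a replicate block, leaving out each library, no doublet removal, a stricter marker rule (at least 5 UMIs of 3 markers and 4 times any other class), classes by clusters (Scanpy 1.11.5, leidenalg 0.10.2) and under 1% mitochondrial UMIs. Leaving out deep nuclei was chosen after the data were seen. Each test was first tried on simulated counts.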

Additional observations from a re-analysis of the deposited data

How the results depend on the processing

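Between the genotypes, edgeR called 0 genes in each class, and the count was also 0 in each class fitted with DESeq2, DESeq2 size factors, limma-voom, no doublet removal, the stricter marker rule, classes by clusters, under 1% mitochondrial UMIs and no deep nuclei. With no filter on low counts it called 1 gene in inhibitory neurons and 3 in astrocytes. Leaving out 1 library gave 0 to 6 genes in excitatory neurons, 1 to 14 in inhibitory neurons, 0 to 83 in astrocytes, 1 to 3 in precursors, 0 to 8 in differentiating oligodendrocytes, 0 to 1 in microglia and 0 to 4 in mural cells. With the replicate number as a block it called 31 genes in excitatory neurons, 154 in inhibitory neurons, 33 in oligodendrocytes, 7 in precursors and 5 in microglia, and none of the 10 members. The deviations of libraries with the same number correlated at 0.30 to 0.79 over the classes, from only 2 pairs.

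Against the other classes, 1 member was called higher in excitatory neurons under the stricter marker rule and under classes by clusters (Pde4d), and 1 in inhibitory neurons under these and without deep nuclei (Pde4d). Precursors had 2 with no filter on low counts, 3 under the stricter rule and under clusters, and 1 to 2 without a library. Differentiating oligodendrocytes had 2 with DESeq2 size factors and without deep nuclei, and 0 to 2 without a library. Mural cells had 1 under clusters (Nde1), where Nde1 turned to log2 1.80, Pde4b to 0.25 and Tnik to 0.030. Thinned to 1000 UMIs, nuclei with a Disc1 UMI were 1.19% of excitatory neurons, 0.893% of inhibitory neurons, 3.49% of astrocytes, 0.334% of oligodendrocytes and 7.25% of precursors. The stricter rule left too few differentiating oligodendrocytes and mural cells to fit, and clusters no tested differentiating oligodendrocytes. Leaving out deep nuclei or holding mitochondrial UMIs under 1% left too few mural cells. Where a class was not fitted, the others were set against the mean of fewer classes. Scarce genes also limit precision: Nde1 in inhibitory neurons rests on 2 UMIs a library.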

Other observations

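Endothelial nuclei, too few in WT replicate 1 to be tested, gave Nde1 levels of 30.2, 15.8, 53.7 and 31.4 CPM (WT replicate 1, DISC1-N replicate 1, WT replicate 2, DISC1-N replicate 2), above the 2 CPM that no neuronal library reached. Ndel1 was at 15.1, 94.9, 107 and 110 CPM in the same libraries, with WT replicate 1 and its 18 nuclei the low one. Disc1 gave 0, 31.6, 80.6 and 15.7 CPM there, too wide a range to place the class.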
